A study of Mus musculus with 8 samples.

Results

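Open chromatin was measured at 8 genes that encode scavenger receptors and other receptors reported to bind amyloid-beta: Msr1, Marco, Colec12, Cd36, Scarb1, Scarb2, Lrp1 and Ager. They were chosen by name, with earlier results of these data known, and their members are all peaks that the deposited tag table assigns to them. These were 77 of 67822 peaks, assigned to 8 of 16095 genes that had any peak. The assay was ATAC-seq, in which a transposase cuts accessible DNA and leaves sequencing adapters there, so that a tag marks an insertion and a peak marks an accessible site. RNA and protein were not measured.

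The cells were CD11b-positive microglia, the macrophages that reside in the brain, taken from the mouse forebrain with magnetic beads after myelin had been removed. There were 4 libraries of knockout mice, which the series describes as a Cias1 knockout named Nlrp3-/- from Millennium Pharmaceuticals, and 4 libraries of wild-type mice, whose genetic background is given as C57BL/6N. Cias1 is an older name of Nlrp3, the gene of an inflammasome sensor, and the series concerns this protein and glutamine breakdown in microglia in Alzheimer's disease. Neither genotype was labelled with an amyloid transgene, a treatment, an age or a sex, and the deletion construct and the strain background of the knockout are not described. The labels do not tie libraries to animals, so the p-values below measure only the spread between these libraries, which may be technical in part.

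Scavenger receptors are surface proteins of macrophages that bind modified lipoproteins, lipids, bacterial products and protein aggregates, and many of them carry their ligand into the cell for breakdown in lysosomes. Class A receptors such as MSR1 and MARCO are trimers with a collagen-like stalk. Class B receptors such as CD36 cross the membrane at both ends and move or sense lipids, and LRP1 is a large endocytic receptor of the LDL receptor family.

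The libraries held 11325865 to 15521580 tags each. The share of tags in peaks was 6.68%, 4.96%, 20.9% and 26.2% in knockout libraries 1 to 4, against 17.5%, 9.79%, 12.8% and 14.4% in wild-type libraries 1 to 4. Knockout libraries 1 and 2 thus stood apart with the lowest shares and gave the fewest tags of the 8 libraries at Msr1, Marco, Scarb1, Scarb2 and Lrp1. Over all 4 libraries the share averaged 14.7% ± 10.5 in knockout and 13.6% ± 3.20 in wild type (SD, n = 4 each; difference 1.07, exact permutation test, two-sided, p = 0.829). Tags in the listed peaks on chromosome Y numbered 88 in knockout library 3 and 201 and 255 in wild-type libraries 3 and 4, against 1 to 13 in the other libraries. At the promoter peaks of Nlrp3 itself, the 4 knockout libraries together held 1 and 2 tags, while each wild-type library held 58 to 80 and 54 to 69. All 12 microglia marker genes, among them P2ry12, Tmem119 and Cx3cr1, had peaks, with summed levels of 2637 to 2923 CPM in knockout and 2353 to 2719 CPM in wild type. CPM is the tag count scaled to the library's tags in tested features, corrected for library composition by TMM.

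No receptor gene and no receptor peak passed the test between genotypes. Of the 77 peaks, 66 passed the minimum-count filter and were tested. Of these, 0 had an edgeR adjusted p under 0.05, in an assay where 0.17% of all tested peaks did. An unadjusted p under 0.05 was reached by 2 of the 66, against 4.83% of all tested peaks. The 2 genotypes did not overlap at 2 of the 66, against 3.17% of all tested peaks, and 1 peak had both properties. These shares are close to the background and are no result about the receptor genes. The median log2 fold change of knockout over wild type was 0.038 over the receptor peaks and 0.0037 over all tested peaks. Of the 66, 36 (54.5%) had a positive fold change, against 50.5% of all tested peaks. Fold changes of the receptor peaks ran from -0.58 to 1.67 on the log2 scale, with the quartiles at -0.17 and 0.20, and those of all tested peaks had their quartiles at -0.17 and 0.18. In these bulk libraries, fewer cells with an open site and less opening per cell cannot be told apart.

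**Figure D1:**
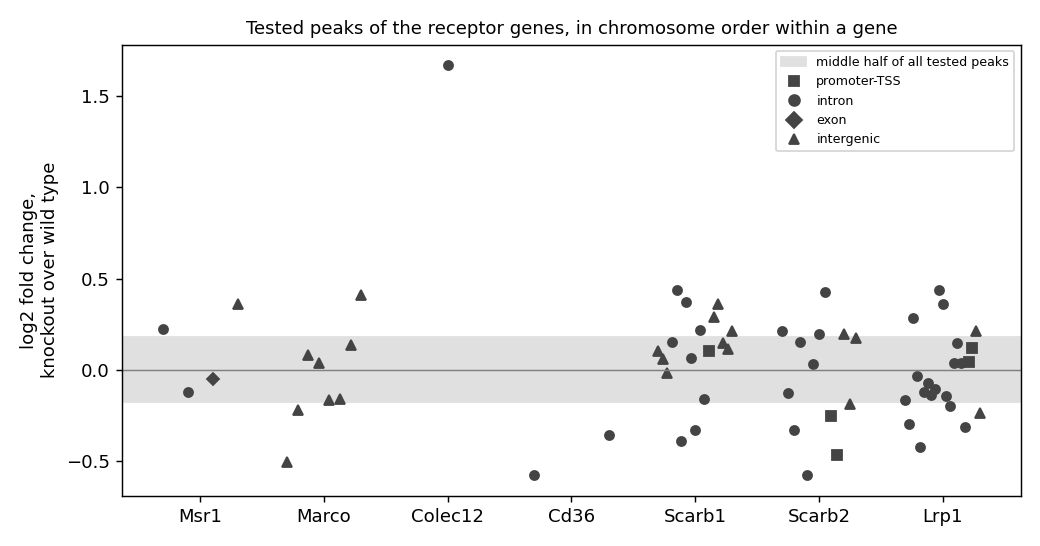
Log2 fold change of knockout over wild type (vertical axis) at each of the 66 tested receptor peaks, in columns by gene and in chromosome order within a gene. Symbols give the annotation, and the grey band spans the middle 50% of all tested peaks, -0.17 to 0.18. The Colec12 peak at 1.67 lies above all others, and the remaining points spread around 0, except in Cd36, where both lie below it.

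Summed over the peaks of a gene, 7 of the 8 genes could be tested and 0 passed at an edgeR adjusted p under 0.05, where 0.213% of 15476 tested genes did. Colec12 was the 1 gene of the 7 with an unadjusted p under 0.05, and 5.96% of all tested genes had one. The median log2 fold change was 0.072 over the 7 genes, 5 of them with positive and 2 with negative values, and 0.002 over all tested genes. Without knockout libraries 1 and 2, 0 receptor peaks and 0 receptor genes passed as well (lowest edgeR adjusted p = 0.393 and 0.701). For the 5 genes with the most tags, the 95% interval of the fold of the sum over all peaks was 0.910 to 1.13 for Lrp1, 0.863 to 1.07 for Scarb2, 0.976 to 1.23 for Scarb1, 0.908 to 1.22 for Marco and 0.904 to 1.27 for Msr1. The intervals of Cd36 and Colec12 were wide, and Ager was below the minimum count for testing. These bounds hold for sums over all peaks: from promoter peaks only, the log2 fold change was 0.29 for Lrp1 (SE 0.14, unadjusted p = 0.0436), -0.21 for Scarb2 (SE 0.11, unadjusted p = 0.0729) and 0.17 for Scarb1 (SE 0.29), each with an edgeR adjusted p of 0.999. The Lrp1 promoter sum includes a peak from the knockout list only, chr10:127621386-127621591, that was not tested singly. It did not pass the minimum-count filter, which asks for a minimum level in enough libraries. It held 12, 5, 25 and 14 tags in knockout libraries 1 to 4, against 10, 6, 6 and 11 tags in wild-type libraries 1 to 4. That peak had 9.34 CPM in knockout and 4.43 CPM in wild type. The tested Lrp1 promoter peaks had log2 fold changes of 0.042 and 0.12.

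**Figure D2:**
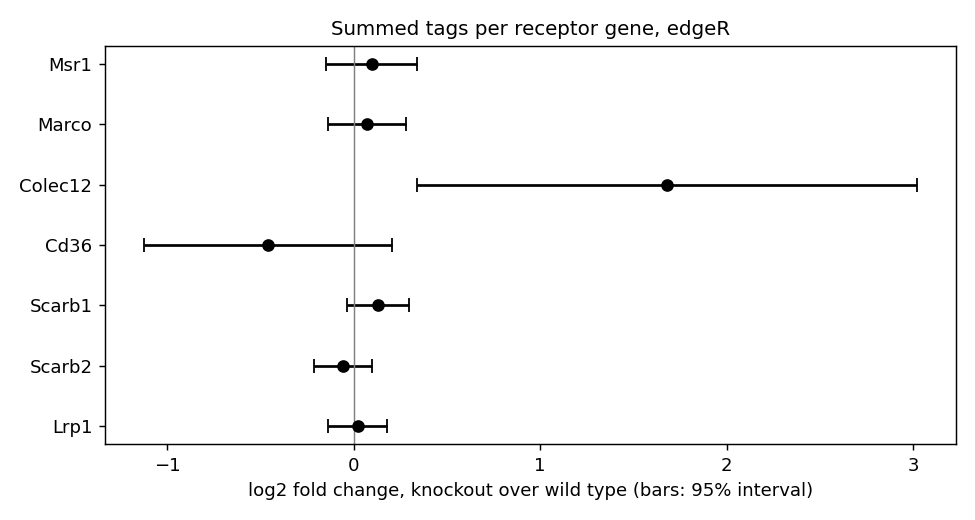
Log2 fold change of knockout over wild type of the tags summed per receptor gene (points), with the 95% interval of edgeR's quasi-likelihood fit (bars), for the 7 tested genes. The intervals of Lrp1, Scarb2, Scarb1, Marco and Msr1 are short and span 0, that of Cd36 is long and spans 0, and that of Colec12 runs from 0.34 to 3.02.

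The annotation of the receptor peaks is given here beside that of all listed peaks, without a test. Of the 77, 7 (9.09%) were annotated as promoter, against 19.5% of all listed peaks, 44 (57.1%) as intronic, against 42.9%, 25 (32.5%) as intergenic, against 30.3%, and 1 as exonic. The promoter peaks belonged to Lrp1 (3), Scarb2 (2), Scarb1 (1) and Ager (1), while Msr1, Marco, Colec12 and Cd36 had none in the list. The list merges peaks reproduced between libraries of a genotype, so a start site without a listed peak may still hold some tags. Of the 77, 58 (75.3%) came from the lists of both genotypes, 6 from that of the knockout alone and 13 from that of the wild type alone. All listed peaks gave 75.5% from both lists. Since both lists rest on the libraries compared here, membership in 1 list is not independent evidence of a difference.

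Promoter sequence was compared for members that RefSeq's promoter table (GRCm38.p6) holds, which were Scarb2, Lrp1, Ager, Cd36 and Marco. The 250 bases upstream of the start site are shown for 4 of them, to set the letters beside the peaks. A listed peak touches this window in 2 of them and not in the other 2. They come from chr5:92505658-92505907 (Scarb2), chr10:127621149-127621398 (Lrp1), chr5:17835897-17836146 (Cd36) and chr1:120505025-120505274 (Marco), all read from the minus strand. Capitals mark matches to the GC box GGGCGG or its reverse complement.
Scarb2 promoter: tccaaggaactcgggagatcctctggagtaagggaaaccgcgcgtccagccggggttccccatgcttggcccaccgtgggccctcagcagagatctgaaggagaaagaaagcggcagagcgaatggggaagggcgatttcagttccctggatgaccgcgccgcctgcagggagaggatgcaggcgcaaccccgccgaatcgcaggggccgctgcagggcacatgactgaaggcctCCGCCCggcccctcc
Lrp1 promoter: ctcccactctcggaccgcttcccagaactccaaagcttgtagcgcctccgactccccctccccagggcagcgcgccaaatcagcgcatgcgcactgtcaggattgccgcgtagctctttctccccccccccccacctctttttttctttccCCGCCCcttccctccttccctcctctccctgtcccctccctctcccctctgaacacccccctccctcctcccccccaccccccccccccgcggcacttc
Cd36 promoter: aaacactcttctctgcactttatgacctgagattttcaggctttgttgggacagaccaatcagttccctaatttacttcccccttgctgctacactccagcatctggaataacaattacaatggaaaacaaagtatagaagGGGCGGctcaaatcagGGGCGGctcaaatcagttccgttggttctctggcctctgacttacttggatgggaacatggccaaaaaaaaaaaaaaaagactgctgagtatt
Marco promoter: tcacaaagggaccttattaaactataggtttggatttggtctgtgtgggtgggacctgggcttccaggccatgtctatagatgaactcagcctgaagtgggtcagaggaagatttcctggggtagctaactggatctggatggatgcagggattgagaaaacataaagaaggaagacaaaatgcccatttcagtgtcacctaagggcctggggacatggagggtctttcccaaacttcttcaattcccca
The Scarb2 window held 19 CpG dinucleotides and 212 of its 250 bases lay under a listed peak. The Lrp1 window held 13, with 72 bases covered by the edges of 2 peaks, and the Ager window held 3, with 113 bases covered. The Cd36 and Marco windows held 3 and 0 and no listed peak touched them. Over 32851 promoters in the table, a peak touched 73.3% of those with 10 or more CpGs, 20.1% of those with 3 to 9 and 4.62% of those with 0 to 2. The 5 motifs searched on both strands were GAGGAAGT (PU.1), TGANTCA (AP-1), TGACGTCA (CRE), GGGCGG (SP1 GC box) and TGCTGAC (MAF). They occurred in 2.44%, 6.75%, 1.55%, 32.7% and 3.81% of all promoters, in that order. Among the 5 members, GC boxes were found in Cd36 (2), Lrp1 (1) and Scarb2 (1), and these windows held no match to the other letters. The Cd36 window belongs to a different start site from the one that the deposited peak distances count from.

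**Figure D3:**
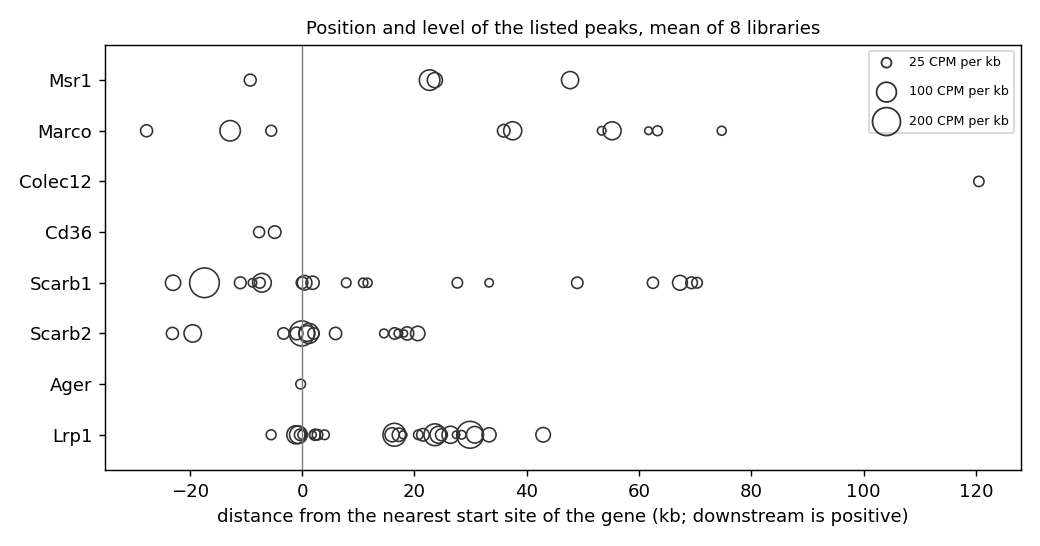
Distance of each listed peak from the start site its annotation uses, in kb with downstream positive (horizontal axis), by receptor gene. Circle area grows with the mean level over the 8 libraries in CPM per kb of peak. Scarb2, Lrp1 and Scarb1 have peaks at and around 0, while all peaks of Marco, Msr1, Cd36 and Colec12 lie more than 4 kb away.

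The order of the genes by accessibility per length is a description and was not tested. Tags summed over a gene's peaks and divided by their total width gave 67.4 ± 7.39 CPM per kb for Msr1 in knockout and 61.5 ± 8.19 in wild type (SD, n = 4 each, here and below), the highest of the 8. Lrp1 followed with 50.3 ± 3.13 in knockout and 49.5 ± 3.68 in wild type. Scarb2 had 47.1 ± 2.46 in knockout and 49.3 ± 2.83 in wild type. In the wild type, Msr1 stood above Lrp1 by more than either SD, and the neighbours from Lrp1 down through Scarb2, Marco and Scarb1 differed by less than the larger SD of each pair. Marco had 46.2 ± 6.53 CPM per kb in knockout and 44.7 ± 4.63 in wild type. Scarb1 had 46.6 ± 2.75 in knockout and 42.2 ± 3.56 in wild type. Cd36 and Ager were lower, and their spread was as large as the gap to the genes above them in at least 1 genotype. Cd36 had 30.9 ± 14.5 CPM per kb in knockout and 37.5 ± 17.2 in wild type. Ager had 26.9 ± 13.5 in knockout and 21.2 ± 6.96 in wild type. Colec12 had 39.7 ± 24.5 in knockout and 12.6 ± 16.3 in wild type, the widest relative spread of the 8 genes.

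**Figure D4:**
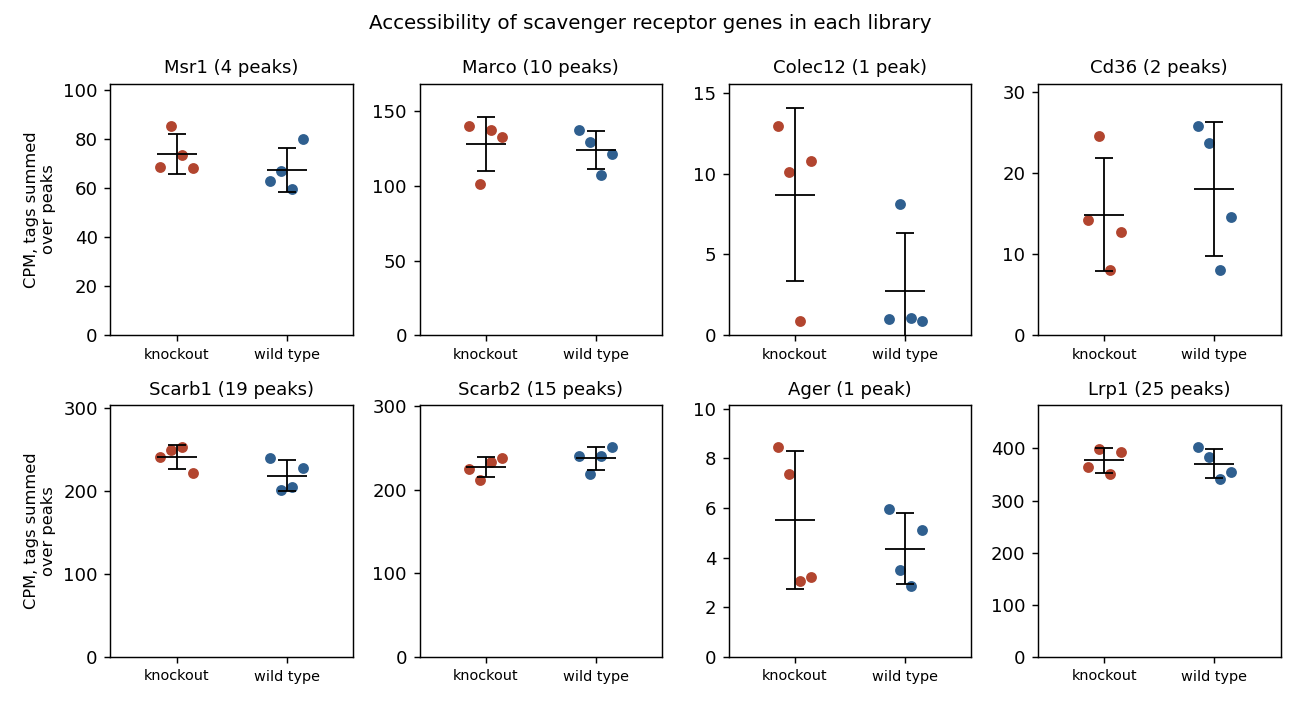
CPM of the tags summed over each receptor gene's peaks in every library (points), with the mean and SD of 4 libraries, knockout in red at the left and wild type in blue at the right of each panel. Ager is on the scale of the peak fit, since its sum was not tested. The groups overlap in all 8 panels, and Colec12 is the panel with the clearest gap, broken by 1 library of each genotype.

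Among the class A receptors, Msr1, which takes up modified lipoproteins and fibrillar amyloid-beta, had 4 peaks on chromosome 8 in or near its gene (39543232 to 39642750). Their sum was 68.5, 85.4, 73.2 and 68.0 CPM in knockout libraries 1 to 4, against 62.9, 66.9, 59.6 and 80.0 CPM in wild-type libraries 1 to 4. The groups overlapped, since wild-type library 4 exceeded all knockout libraries except the second (log2 fold change 0.098, SE 0.12, edgeR adjusted p = 0.962). The most open Msr1 site, chr8:39619837-39620084, covers part of exon 5 of 9. It held 20.5, 38.4, 23.3 and 24.9 CPM in knockout, against 22.4, 28.8, 25.6 and 29.8 CPM in wild type. Knockout library 2 was the highest and knockout library 1 the lowest at this exon, so the groups overlapped throughout (log2 -0.052, SE 0.20). The other 3 Msr1 peaks, at introns 5 and 8 and 9224 bp upstream, had log2 fold changes from -0.12 to 0.36.

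Marco, a receptor for bacteria and particles that resting microglia are known to express at low levels, had 10 peaks on chromosome 1, all intergenic. None lay within the gene (120474538 to 120505024), and they stood 5481 to 74727 bp from its start site, so their assignment rests on Marco being the nearest start site. Their sum was 140.5, 101.3, 137.5 and 132.9 CPM in knockout libraries 1 to 4, against 137.5, 129.7, 107.5 and 121.6 CPM in wild-type libraries 1 to 4. Knockout library 2 was the lowest of the 8 and library 1 the highest (log2 0.072, SE 0.10, edgeR adjusted p = 0.970). The peak with the most tags, 12802 bp upstream at chr1:120517657-120517996, held 39.8, 17.7, 49.6 and 41.1 CPM in knockout and 39.8, 26.7, 31.3 and 44.7 CPM in wild type. Again knockout library 2 was lowest, and the groups overlapped (log2 0.13, SE 0.20). Of the 8 tested Marco peaks, 4 had positive and 4 negative fold changes, from -0.50 to 0.41.

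Colec12, a collagen-stalk lectin receptor best known from endothelial cells and astrocytes, had the smallest p of the genes, from a single peak with few tags. This peak (chr18:9828057-9828275) lies in intron 2 of 9, 120518 bp from the start site, and came from the knockout list only. It held 11, 7, 2 and 35 tags in knockout libraries 1 to 4, against 2, 12, 2 and 2 tags in wild-type libraries 1 to 4. As gene levels these were 12.98, 10.1, 0.846 and 10.8 CPM in knockout and 0.975, 8.11, 1.06 and 0.884 CPM in wild type. Knockout libraries 1, 2 and 4 and wild-type library 2 were high and the other 4 libraries low, so each genotype had a library on the other's side. The fitted log2 fold change was 1.68 (SE 0.65, 95% interval 0.34 to 3.02), with an unadjusted p of 0.0148 and an adjusted p of 0.668 in edgeR. A single library moved the value: it was 2.93 without wild-type library 2 (adjusted p = 0.191) and 1.25 without knockout library 4 (adjusted p = 0.734), both in edgeR. The 3 libraries with 88 to 255 tags in chromosome Y peaks were all among the low 4 at this peak. The part of this difference between libraries in the result was not tested. Among the other 5 libraries, the knockout ones had 12.98, 10.1 and 10.8 CPM and the wild-type ones 0.975 and 8.11 CPM. Tested astrocyte marker genes (5 of 7) summed to 367 to 527 CPM in knockout and 329 to 412 CPM in wild type. Of these, Slc1a3 alone averaged 372 CPM in knockout and 300 CPM in wild type. Tested endothelial and mural marker genes (6 of 11) summed to 531 to 575 CPM in knockout and 522 to 586 CPM in wild type. The part of these cell types in the Colec12 level was not tested. The 5 tested genes whose levels followed Colec12 most closely over the 8 libraries were Itgb5 (Pearson r of log2 CPM 0.972), Dcp1a (0.943), A230083G16Rik (0.932), Gm3716 (0.926) and Fbxw9 (0.924), picked from 15476 genes and given as a description.

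Among the class B receptors, Cd36, a fatty acid and oxidized LDL receptor that takes part in microglial responses to fibrillar amyloid-beta, had 2 peaks on chromosome 5, both in intron 1 of 15 of its long transcript. Their sum was 12, 17, 19 and 41 tags in knockout libraries 1 to 4, against 53, 35, 15 and 33 tags in wild-type libraries 1 to 4. This corresponded to 14.2, 24.6, 8.04 and 12.7 CPM in knockout and 25.8, 23.7, 7.98 and 14.6 CPM in wild type. Knockout library 3 and wild-type library 3 were both at the bottom, and the groups overlapped over their whole range. The log2 fold change was -0.46 (SE 0.32, edgeR adjusted p = 0.897), and its fold interval of 0.458 to 1.16 covers both a loss of more than 50% and no change. Single libraries moved this value: with 1 left out it ran from -0.70 without wild-type library 3 (unadjusted p = 0.0259 in edgeR) to -0.21 without knockout library 3 or wild-type library 1, and it was -0.67 without knockout library 2. Without both knockout libraries 1 and 2 it was -0.74 (unadjusted p = 0.0378, edgeR adjusted p = 0.701). The stronger of the 2 sites, chr5:17854543-17854762, came from the wild-type list only. It held 6.03, 10.3, 4.39 and 8.41 CPM in knockout and 16.9, 11.2, 3.98 and 9.32 CPM in wild type (log2 -0.58, SE 0.36). Wild-type library 1 was the highest here and wild-type library 3 the lowest, and the value was -0.21 without the first and -0.84 without the second (unadjusted p = 0.0168 in edgeR).

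Scarb1, the HDL receptor that exchanges cholesterol esters at the cell surface, had 19 peaks on chromosome 5, of which 17 were tested. Their sum was 240.8, 250.3, 253.0 and 221.6 CPM in knockout libraries 1 to 4, against 239.9, 201.4, 205.4 and 228.6 CPM in wild-type libraries 1 to 4. Of the knockout libraries, 3 lay above all wild-type libraries and the fourth among them (log2 0.13, SE 0.081, edgeR adjusted p = 0.893). Of the 17 tested peaks, 13 had positive and 4 negative fold changes, from -0.39 to 0.44, and the lowest unadjusted p was 0.136. The promoter peak, centred 5 bp from the start site at chr5:125340948-125341231, was weak, with 14.5, 7.38, 7.90 and 11.6 CPM in knockout and 7.95, 4.92, 13.7 and 11.2 CPM in wild type (log2 0.10, SE 0.30). The strongest of all 77 receptor peaks lay 17371 bp upstream, at chr5:125358332-125358598, and stood at the 98.3rd percentile of all listed peaks in CPM per kb. It held 55.5, 51.7, 72.9 and 66.0 CPM in knockout, against 68.6, 60.4, 42.7 and 62.0 CPM in wild type. Knockout library 3 was the highest there and wild-type library 3 the lowest, while the other 6 were mixed (log2 0.11, SE 0.15).

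Scarb2, which encodes the lysosomal membrane protein LIMP-2 that carries glucocerebrosidase to lysosomes, had the most accessible promoter of the 8 genes and the 2 peaks without overlap between genotypes. Its 15 peaks summed to 224.3, 211.2, 233.6 and 237.9 CPM in knockout libraries 1 to 4, against 240.3, 218.3, 239.9 and 250.7 CPM in wild-type libraries 1 to 4, with overlap (log2 -0.056, SE 0.076, edgeR adjusted p = 0.970). The promoter peak shown above in part, chr5:92505527-92505869, stood at the 88.9th percentile of promoter peaks in CPM per kb. It held 47.1, 47.2, 51.4 and 54.3 CPM in knockout and 56.7, 52.0, 69.4 and 62.9 CPM in wild type. Only wild-type library 2 fell within the knockout range, and the difference did not pass (log2 -0.25, SE 0.14, unadjusted p = 0.0895, edgeR adjusted p = 1.00).

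In intron 1 of Scarb2, 2 sites less than 6 kb from the start site had fold changes in opposite directions. They are named because the genotypes did not overlap there, which also held for 3.17% of all tested peaks. The site 893 bp downstream, chr5:92504639-92504889, came from the knockout list only and held 16.9, 17.7, 20.2 and 18.4 CPM in knockout, against 15.4, 13.4, 10.2 and 15.8 CPM in wild type. All knockout libraries lay above all wild-type libraries (log2 0.43, SE 0.22, unadjusted p = 0.0586 in edgeR). The site 5973 bp downstream, chr5:92499536-92499833, held 10.9, 2.95, 10.5 and 10.4 CPM in knockout, against 13.4, 12.6, 13.1 and 17.2 CPM in wild type. Here all knockout libraries lay below all wild-type libraries, and knockout library 2, with 2 tags, lay far below the rest (log2 -0.57, SE 0.27, unadjusted p = 0.0395 in edgeR). Neither passed after adjustment over all peaks (edgeR adjusted p = 1.00 for each). Both sites kept their sign under all 16 alternatives. At the site 5973 bp downstream, the unadjusted p in edgeR was 0.0259 with the replicate block and 0.525 under scaling to all tags. It was 0.0890 without knockout library 2 and 0.123 without wild-type library 4, both in edgeR. With DESeq2 the unadjusted p was 0.0879 there and 0.150 at the site 893 bp downstream. The other 11 tested Scarb2 peaks overlapped between genotypes.

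**Figure D5:**
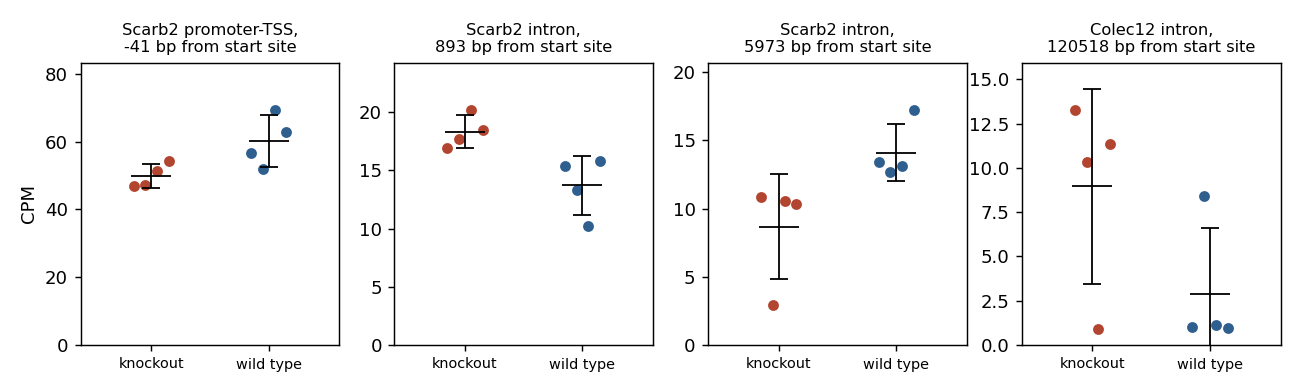
CPM in every library (points) with the mean and SD of 4 libraries, knockout in red at the left and wild type in blue at the right, at the Scarb2 promoter, the 2 Scarb2 intron sites without overlap and the Colec12 intron site; an SD bar that would pass below 0 stops at the axis. The first Scarb2 intron panel (893 bp) shows knockout above wild type and the second (5973 bp) knockout below, and the Colec12 panel shows 1 library of each genotype among the other's.

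Outside these classes, Lrp1, the endocytic receptor for apolipoprotein E and amyloid-beta complexes, had the most peaks and the most tags of the 8 genes. Its 25 peaks on chromosome 10, 20 of them intronic, summed to 364.7, 399.3, 350.3 and 394.0 CPM in knockout libraries 1 to 4, against 402.2, 384.5, 341.5 and 355.0 CPM in wild-type libraries 1 to 4. The genotypes spanned nearly the same range (log2 0.022, SE 0.077, edgeR adjusted p = 0.992). Of the 21 tested peaks, 9 had positive and 12 negative fold changes, from -0.42 to 0.44. The strongest, chr10:127591102-127591345 in intron 11 of 88, stood at the 96.8th percentile of all listed peaks in CPM per kb. It held 36.2, 51.7, 39.5 and 50.1 CPM in knockout and 47.7, 47.8, 41.0 and 45.7 CPM in wild type (log2 -0.033, SE 0.16). The wild-type libraries all fell within the knockout range at this site. The strongest of the 3 promoter peaks, centred 650 bp upstream at chr10:127621618-127621978, held 22.9, 36.9, 24.6 and 35.6 CPM in knockout and 27.8, 23.2, 29.6 and 29.3 CPM in wild type. It stood at the 65.8th percentile of promoter peaks, and the groups overlapped (log2 0.12, SE 0.19).

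Ager, the gene of RAGE, a receptor for advanced glycation products, S100 proteins and amyloid-beta that is most abundant in lung, had 1 peak, at its promoter (chr17:34597507-34597712). It came from the wild-type list only and held 7, 5, 7 and 10 tags in knockout libraries 1 to 4, against 12, 5, 5 and 11 tags in wild-type libraries 1 to 4. The mean level was 5.53 ± 2.78 CPM in knockout and 4.36 ± 1.43 CPM in wild type (SD, n = 4 each). It was below the minimum count of the main test. Fitted without that filter, the peak had a log2 fold change of 0.0044 (SE 0.44, edgeR adjusted p = 1.00). This fitted value is not the ratio of the CPM means, in which every library counts equally. The mean levels differed by less than either SD, and no difference was detectable at this depth. With 1 library left out, where the peak then passed the filter, the value ran from -0.24 to 0.27, and it was -0.49 without knockout libraries 1 and 2.

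The assignment of peaks to the nearest start site left further sites inside these genes under other names. In the body of Lrp1, 5 peaks are assigned to Nxph4, and in the body of Scarb2, 3 are assigned to Mir6415 and 1 to Nup54. All 9 were tested and 0 passed, with log2 fold changes from -0.69 to 0.37. The lowest was an Lrp1 intron site, chr10:127564337-127564656, with 12.7 ± 3.88 CPM in knockout and 20.4 ± 3.73 CPM in wild type (SD, n = 4 each). Its unadjusted p of 0.00620 in edgeR was smaller than that of any of the 66 tested receptor peaks, and its edgeR adjusted p was 0.755.

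Genes that work with these receptors were examined at the level of summed tags, in 7 lists, and 0 genes in any list passed in either direction (edgeR adjusted p under 0.05). Among 16 partners of CD36, all tested, the median log2 fold change was 0.031 and 11 were positive. Fyn, a Src-family kinase that acts downstream of CD36, had 88.7 ± 8.03 CPM in knockout and 114.7 ± 9.78 CPM in wild type, with log2 -0.40 (SE 0.10) and an adjusted p of 0.158 in edgeR, the lowest of these lists. Fabp5, a fatty acid carrier, had 95.5 ± 5.90 CPM in knockout and 79.2 ± 14.7 CPM in wild type (log2 0.26, SE 0.12). In the LDL receptor family with LRP1 partners, 12 of 17 genes were tested, with a median of 0.074, and 9 were positive. Lrp5, a Wnt co-receptor, had 132.3 ± 9.87 CPM in knockout and 110.2 ± 3.60 CPM in wild type (log2 0.25, SE 0.089, edgeR adjusted p = 0.613), and Lrpap1, the chaperone of LRP1, had 34.1 ± 14.0 CPM in knockout and 39.0 ± 2.70 CPM in wild type (log2 -0.32, SE 0.18). Other scavenger receptors (12 of 17 tested) had a median of -0.0095. Their smallest p values belonged to Cd5l (log2 -0.60, SE 0.29) and Olr1 (log2 0.21, SE 0.13).

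Of 15 transcription factors known to act on scavenger receptor genes, all tested, 9 were positive and the median was 0.028. Rxra, the shared partner of PPAR and LXR receptors, had 512.9 ± 54.4 CPM in knockout and 431.3 ± 51.8 CPM in wild type (log2 0.24, SE 0.089, edgeR adjusted p = 0.645). Nr1h2, which encodes LXR beta, had 21.5 ± 1.07 CPM in knockout and 30.2 ± 4.96 CPM in wild type (log2 -0.46, SE 0.17, edgeR adjusted p = 0.662). Lipid efflux genes (12 of 12 tested) had a median of -0.066 with 2 positive, led by the lipid droplet coat gene Plin2 (log2 -0.31, SE 0.16) and the cholesterol ester hydrolase gene Nceh1 (log2 -0.089, SE 0.094). Other genes of amyloid uptake and clearance (18 of 20 tested) had a median of -0.0064, and those with the smallest p were the complement gene C1qa (log2 0.24, SE 0.11) and the phosphatase gene Inpp5d (log2 0.14, SE 0.084). Genes of RAGE ligands and signalling (5 of 8 tested) had a median of 0.00079, with Rela at log2 0.21 (SE 0.097) and Hmgb1 at -0.097 (SE 0.083). For comparison, 7808 of the 15476 tested genes were positive. Microglia markers had a median of 0.094 with 11 of 12 positive, and 0 of them passed. Their smallest p values belonged to Csf1r (log2 0.26, SE 0.077, edgeR adjusted p = 0.369) and Tmem119 (log2 0.24, SE 0.089, edgeR adjusted p = 0.633). Border macrophage and monocyte markers (10 of 12 tested) summed to 382 to 592 CPM in knockout and 442 to 521 CPM in wild type. Oligodendrocyte lineage markers (7 of 10 tested) summed to 446 to 527 CPM in knockout and 421 to 464 CPM in wild type. Of these, Mbp alone averaged 368 CPM in knockout and 335 CPM in wild type. Neuron markers (4 of 9 tested) summed to 55.5 to 95.5 CPM in knockout and 65.5 to 76.1 CPM in wild type. Granulocyte and lymphocyte markers (2 of 11 tested) summed to 39.0 to 52.5 CPM in knockout and 40.5 to 47.7 CPM in wild type. A positive median was not particular to microglia markers. It was 0.102 for oligodendrocyte lineage (5 positive), 0.065 for astrocyte (4 positive), 0.055 for neuron (2 positive) and 0.058 for granulocyte and lymphocyte markers (1 positive). The median was -0.026 for border macrophage and monocyte (4 positive) and -0.027 for endothelial and mural markers (2 positive). In these marker lists 0 genes passed, and the part of other cell types in the receptor levels was not tested.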

How the data were processed

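ATAC-seq of 8 forebrain microglia libraries, 4 knockout and 4 wild type, was analysed from the deposited table of tag counts per peak. Per the labels' protocols, about 500000 cells per library were used, fragments of 165 to 250 bp were selected and sequencing was single-end. Per the file headers, the authors counted tags with HOMER over a merged list of reproducible peaks of each genotype, at given sizes and with at most 3 tags per position. Bowtie2, DESeq2 and HOMER and the build mm10 are named in the submitters' processing notes. How reads were aligned, shifted for the transposase or freed of duplicates is not given in the sources used here. Depth was 11325865 to 15521580 tags per library and limits the precision of weak peaks: the median receptor peak held 17.9 tags per library (5.63 to 110.4 over the 77 peaks).

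Peaks whose gene name equals a member were taken, singly and summed per gene. Genotypes were compared in R 4.3.3 with the quasi-likelihood test of edgeR 4.0.16, with TMM, filterByExpr at a minimum count of 10 and genotype as the only term, fitted on all peaks or all genes and adjusted over them by Benjamini-Hochberg. SEs come from the fitted coefficient and F, and intervals are 95%. Peaks without a gene (117, with 0.134% of tags in peaks) stayed out of gene sums. Alternatives were DESeq2 1.42.0, other scalings, filters and moderation, a replicate block, other choices of peaks per gene and each library left out. The scripts were tested on simulated counts.

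All 8 genes are named. Named peaks are each gene's strongest peak and strongest promoter peak, and those with an unadjusted p under 0.05 or no overlap between genotypes. From the lists of genes that work with the receptors, the 2 genes with the smallest p are named. From the marker lists only some genes are named. The body sites assigned to other genes were added after their values were seen. The members, lists and rules were chosen with earlier results of these data known. Promoter sequences are from RefSeq (GRCm38.p6), which matched 5 of the 8 members. Gene coordinates are from a RefSeq table of the same assembly, and peak coordinates are mm10 as deposited.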

Additional observations from a re-analysis of the deposited data

Results flagged for a closer look

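In 3 of 38 groups of 4 libraries examined, 1 library lay far from the other 3. Chance alone would mark about 1 in 20 independent groups. These groups were not independent, since gene sums include the named peaks, and the Scarb2 site below was named for its values. The count is therefore no evidence of an excess. The summed level of Colec12 was 8.109 CPM in wild-type library 2, against 0.884 to 1.06 CPM in the other wild-type libraries. At the Scarb2 intron site chr5:92499536-92499833, knockout library 2 had 2.953 CPM, against 10.4 to 10.9 CPM in the other knockout libraries. At the same site wild-type library 4 had 17.24 CPM, against 12.6 to 13.4 CPM in the other wild-type libraries.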

How the results depend on the processing

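The count of receptor peaks that passed was 0 under all 17 settings and that of receptor genes 0 under all 20, with a lowest adjusted p of 0.172 in each and 0 to 4 peaks and 0 to 2 genes at an unadjusted p under 0.05. Of 300 alternative values for the 18 tested gene sums and named peaks, 283 kept their direction and their side of the threshold and 17 changed sign. Cd36 kept its sign (sum -0.74 to -0.21, with -0.25 under the replicate block; peak -0.84 to -0.21), as did Colec12 (log2 1.25 to 2.93), but its unadjusted p was 0.109 with DESeq2 and 0.111 with robust moderation. Counts over the whole data moved more. Changed peaks numbered 99, with 65 under DESeq2, 19 under scaling to all tags, 60 at a minimum count of 20, 65 to 123 with 1 library left out (65 without knockout library 3) and 246 without knockout libraries 1 and 2, an alternative chosen after seeing the data. Changed genes numbered 33, with 5 under scaling to all tags, 8 from promoter peaks only, 16 from peaks of both lists only, 20 to 42 with 1 library left out (20 without knockout library 3 and 21 without wild-type library 3) and 70 without knockout libraries 1 and 2. Under scaling to all tags the median log2 fold change was 0.099 over all peaks and 0.088 over all genes, and the signs turned at the Lrp1 intron 11 peak (0.073), the Msr1 exon peak (0.022) and the Scarb2 sum (0.050). With 1 library left out, values crossed 0 for the Lrp1 intron 11 peak (-0.13 to 0.032), the Lrp1 promoter peak (-0.033 to 0.22), the Marco peak (-0.044 to 0.28), the Msr1 exon peak (-0.18 to 0.010), the Scarb1 promoter peak (-0.074 to 0.31), the Scarb1 upstream peak (-0.016 to 0.20) and the Lrp1 sum (-0.015 to 0.061). From promoter peaks only the Lrp1 sum was 0.29 and the Scarb2 sum -0.21. For the share of tags in peaks, knockout minus wild type was 1.07 over all libraries and -2.77 to 4.32 with 1 library left out. The cause of these shifts was not tested. Whether the replicate numbers pair the libraries cannot be decided here, since the labels do not say and each genotype has only 4 libraries. Same-numbered deviations from the genotype mean correlated at -0.0078, 0.096, -0.0083 and 0.147. Of the 4 knockout libraries, 2 correlated best with the wild-type library of their own number. With the replicate block, 140 peaks and 38 genes passed over the whole data, 0 receptor peaks and 0 receptor genes did, and the Colec12 sum was 1.92 (edgeR adjusted p = 0.172). Colec12 could not be fitted at a minimum count of 20, and genes without promoter peaks had no value from promoter peaks only. Depth limits Ager and Colec12 most, with 5 to 12 and 2 to 35 tags per library.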
